A study of Mus musculus with 23 samples.

Results

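CTCF crosslink sites were examined in the transcripts of 9 genes for RNA polymerase II and for factors that act on it: Polr2a, Polr2b, Cdk9, Cdk12, Cdk13, Med1, Med12, Med13 and Med13l. The members were chosen by name, and a site belonged to a member when it lay on the strand of the gene and inside its GENCODE M21 body in mm10. The members are 9 of 55413 annotated genes on the chromosomes analysed, of which 13608 held at least 1 site in any list. Each of the 9 held sites in all 6 lists.

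The sites came from iCLIP2, in which UV light links a protein to the RNA it touches and reverse transcription stops beside the linked nucleotide. All groups were mouse ES-E14TG2a cells carrying endogenous CTCF fused to an AID2 degron, OsTIR1(F74G) in Rosa26 and a doxycycline-inducible Flag-Halo rescue CTCF in the Tigre locus. All were given 1 µM 5-Ph-IAA and 1 µg/mL doxycycline for 24 h, so that the Flag-tagged rescue protein replaced the endogenous one before nuclear RNA was immunoprecipitated with it. The rescue protein was either the wild-type form (WT) or a form with a deletion in zinc finger 1 (ΔZF1), and cells were either embryonic stem cells (ESCs) or neural progenitor cells (NPCs) after 2 days of differentiation. Crosslinked cells received 400 mJ/cm2 at 254 nm, and controls without UV (noXL) were made from the WT rescue line alone. The 23 libraries made 6 groups, of 3 libraries for WT in NPCs and 4 for each of the rest. Each rescue line was 1 clone, so the clone and the deletion cannot be told apart.

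RNA polymerase II transcribes the protein-coding genes of the nucleus, and its largest subunit ends in a long tail of repeated heptads, the carboxy-terminal domain, whose phosphorylation marks the stages of transcription. Cdk9 (the kinase of P-TEFb) releases paused polymerase, and Cdk12 and Cdk13, both partners of cyclin K, phosphorylate the tail during elongation. Mediator bridges enhancer-bound activators and the polymerase, with Med1 in its middle module and Med12 and Med13, or the Med13 paralogue Med13l, in its detachable kinase module.

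The site with the best score in the ESC WT list is shown for each member in the 25 nt around it, to show the sequences that scored highest in these RNAs. The crosslinked nucleotide is in capitals, the sequence is the reference of GRCm38 (the mm10 build) read 5′ to 3′ on the gene's strand, and uridine is written u.
Polr2a, chr11:69758622-69758646, minus strand, 5′ UTR: caguucucuccuCagaagcgccgag
Polr2b, chr5:77310506-77310530, plus strand, 5′ UTR: cgucggagacggAcauugcuuggua
Cdk9, chr2:32712667-32712691, minus strand, 5′ UTR: gcggcggcggcgGcggaggcgcgcu
Cdk12, chr11:98206489-98206513, plus strand, intron: aaaguugauuggAgggcuggugaga
Cdk13, chr13:17740368-17740392, minus strand, intron: uacagagcaaguUccaggccagagc
Med1, chr11:98183868-98183892, minus strand, coding exon: ggcaucagcauuUggucagcuguuu
Med12, chrX:101280581-101280605, plus strand, coding exon: aguagaauucuuUaacuugguacug
Med13, chr11:86271880-86271904, minus strand, intron: ucuuauguaucuUaggcuagcuuua
Med13l, chr5:118728602-118728626, plus strand, coding exon: aacccugcccucUauggaaaugggc
The site shown lay on a uridine in Cdk13, Med1, Med12, Med13 and Med13l, and in Polr2a, Polr2b and Cdk9 it lay in the 5′ UTR. In Polr2a the neighbouring uridine, 1 nt upstream, had the same score as the cytidine shown. This cytidine is base 4 of the annotated gene, so the Polr2a window begins upstream of the annotated start. Its first bases are not part of the 5′ UTR. The score that PureCLIP gave these sites ran from 8.88 in Med12 to 98.9 in Polr2a, whose site ranked above 99.4% of the sites of its list. In Cdk9 the window opens with gcg repeats.

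The authors called the sites on the merged libraries of a group, so there is 1 list per group, no replicate error and no test between conditions. Ranges after a value are 95% Wilson intervals, or intervals of ratios made from them, and cover counting error only. The depth in reads is unknown from the lists. Genic sites numbered 429119 with WT, 217770 with ΔZF1 and 150821 without UV in ESCs, then 230147, 153211 and 102002 in NPCs, and counts were scaled to these. Wherever 6 values follow each other, they keep this order of lists. In this order, 8 pluripotency markers held 1320, 634, 344, 53, 30 and 27 sites in all, and 8 neural markers held 2, 0, 0, 57, 62 and 39. Only 3 of the 8 neural markers held sites in NPC WT: Nes (28), Sox11 (20) and Cdh2 (9). Sox1, Pax6, Hes5, Zic1 and Pou3f2 held none with WT or ΔZF1 in NPCs. None of 6 mesoderm and endoderm markers held a site in any list. Ctcf, whose protein the design replaces, held 109, 68, 40, 28, 23 and 17 sites, which lie on its RNA and do not measure the rescue protein.

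The 9 members together had 1420 sites with WT, 550 with ΔZF1 and 559 without UV in ESCs, and 640, 325 and 349 in NPCs. Per 10000 genic sites these were 33.1 (31.4 to 34.9), 25.3 (23.2 to 27.5) and 37.1 (34.1 to 40.3) in ESCs, and 27.8 (25.7 to 30.0), 21.2 (19.03 to 23.6) and 34.2 (30.8 to 38.0) in NPCs. The ΔZF1 list was the lowest of the 3 in each cell type, and the noXL list the highest. A site list grows with the RNA present in the immunoprecipitate as well as with crosslinking, and RNA amounts were not measured here.

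Of the polymerase subunits, Polr2a, which encodes the catalytic subunit with the heptad tail, lies at chr11:69733997-69758637 on the minus strand. It had 212, 62 and 91 sites in the ESC lists (WT, ΔZF1, noXL) and 64, 38 and 23 in the NPC lists. Its NPC noXL count was the lowest, and per 10000 genic sites both WT lists (4.94 in ESCs and 2.78 in NPCs) differed beyond their intervals. Polr2b, the second-largest subunit, at chr5:77310147-77349324 on the plus strand, held 72, 41, 17, 31, 20 and 10 sites. Its level stayed between 0.980 and 1.88 per 10000 genic sites in all 6 lists.

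Of the kinases, Cdk9, at chr2:32705784-32713076 on the minus strand, held 30, 22, 9, 17, 7 and 7 sites. It is the shortest of the 9 genes, and no list held enough of its sites for a narrow interval. Cdk12, at chr11:98203059-98278504 on the plus strand, held 254, 68, 81, 108, 43 and 64 sites. Cdk13, at chr13:17710315-17805097 on the minus strand, held 128, 72, 64, 96, 59 and 59 sites, and 15 of its sites also lay in another gene. In ESC WT, Cdk12 at 5.92 per 10000 genic sites (5.23 to 6.69) was above its paralogue Cdk13 at 2.98 (2.51 to 3.55), whereas in NPC WT the intervals overlapped, 4.69 (3.89 to 5.66) against 4.17 (3.42 to 5.09).

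Of the Mediator genes, Med1, the subunit that nuclear receptors contact, at chr11:98152154-98193293 on the minus strand, held 301, 120, 113, 116, 38 and 62 sites. It held the most of all members in each ESC list. Med13, the kinase-module subunit that tethers the module to core Mediator, at chr11:86267033-86357602 on the minus strand, held 225, 71, 82, 125, 55 and 73 sites and ranked first in NPC WT and NPC noXL. Its paralogue Med13l, at chr5:118560679-118765438 on the plus strand, held 180, 83, 91, 62, 41 and 47 sites, of which 15 also lay in another gene. Med12, which activates the module's kinase, at chrX:101274030-101297465 on the plus strand, held only 18, 11, 11, 21, 24 and 4 sites, of which 6 also lay in another gene.

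In ESC WT the members ranked Med1, Cdk12, Med13, Polr2a, Med13l, Cdk13, Polr2b, Cdk9 and Med12 by scaled count. The intervals of neighbours did not overlap between Med13l at 4.19 (3.63 to 4.85) and Cdk13 at 2.98 (2.51 to 3.55), between Cdk13 and Polr2b at 1.68 (1.33 to 2.11), and between Polr2b and Cdk9 at 0.699 (0.490 to 0.998). Among the first 5 and between Cdk9 and Med12, neighbours were within counting error of each other. Per length of gene the order was different. Polr2a held 2.00 sites per kb per 100000 genic sites in ESC WT, followed by Med1 with 1.71 and Cdk9 with 0.959, and Med13l and Med12 were lowest with 0.205 and 0.179. Med1 stood above 98.4% of the genes with at least 5 sites in ESC WT by scaled count, and Med12 above 31.4%.

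**Figure D1:**
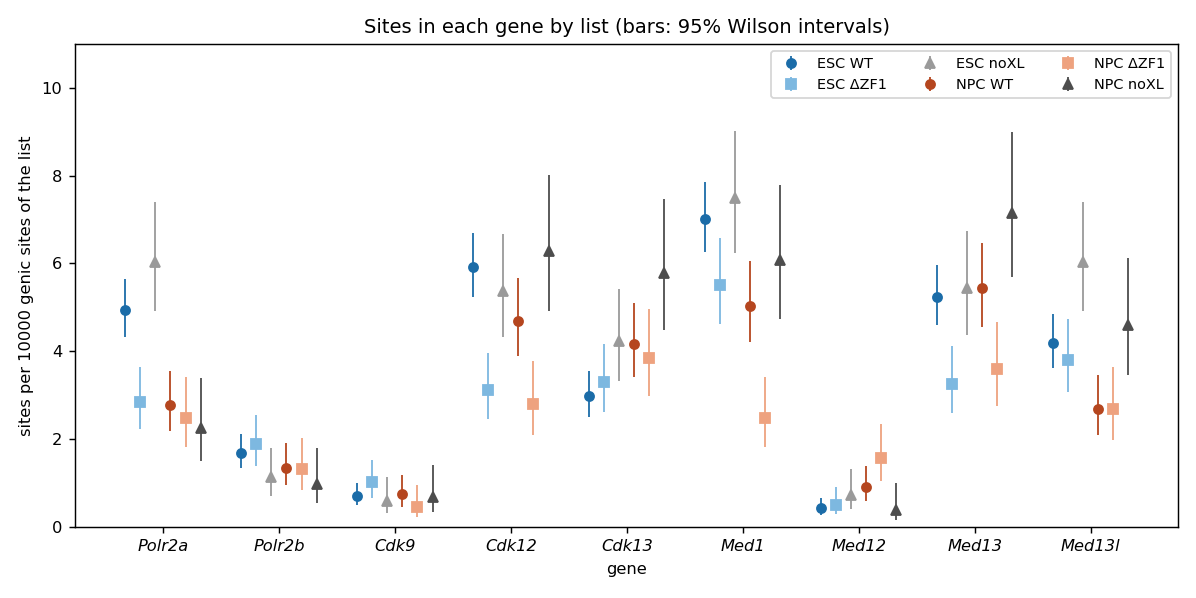
Sites per 10000 genic sites (vertical axis) of the 9 members in the 6 lists, with 95% Wilson intervals as bars. Med1 is highest in each ESC list, at 7.01 in ESC WT, while Med12 stays between 0.392 and 1.57 in all lists.

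The members also differed in where along the transcript their sites lay. Intron sites were 49.0% of the members' sites in ESC WT (46.4 to 51.6), beside 33.4% of all genic sites of that list, and 36.7% in NPC WT (33.1 to 40.5), beside 26.9%. Most member sites lay on chromosome 11, whose genic sites were in introns in 44.3% and 36.0%. Without UV the members' share was 52.4% in ESCs and 50.1% in NPCs, beside 40.2% and 42.6% of all genic sites and 50.5% and 51.7% of those on chromosome 11. Cdk12 and Cdk13 were highest in ESC WT, with 61.8% and 61.7% of their sites in introns, followed by Med1 with 58.8%, Polr2a with 49.5%, Med13l with 46.1% and Med13 with 39.1%. Polr2b with 8.33%, Cdk9 with 3.33% and Med12 with none of 18 sites were almost wholly exonic, although Med12 has 44 introns. A count of 0 allows up to 3 sites.

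Within introns, the sites of some members were bunched. In ESC WT 73 of the 83 intron sites of Med13l lay in intron 2, which is 77.4 kb long and makes up 39.6% of the gene's intron length. Intron 1 of Polr2a, 10.0 kb and 56.0% of the intron length, held 77 of 105. The same introns held most intron sites without UV in ESCs, 35 of 48 in Med13l and 45 of 58 in Polr2a. In ESC WT the intron sites of Med13 were spread over 20 of its 29 introns. In Cdk13 intron 1, which is 37.1% of the intron length, held 32 of 79, or 40.5%. The exonic sites of Med13 and Med1 reached into the 3′ UTR, with 39 and 30 sites there in ESC WT, against 5 in Polr2a and 0 in Polr2b.

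**Figure D2:**
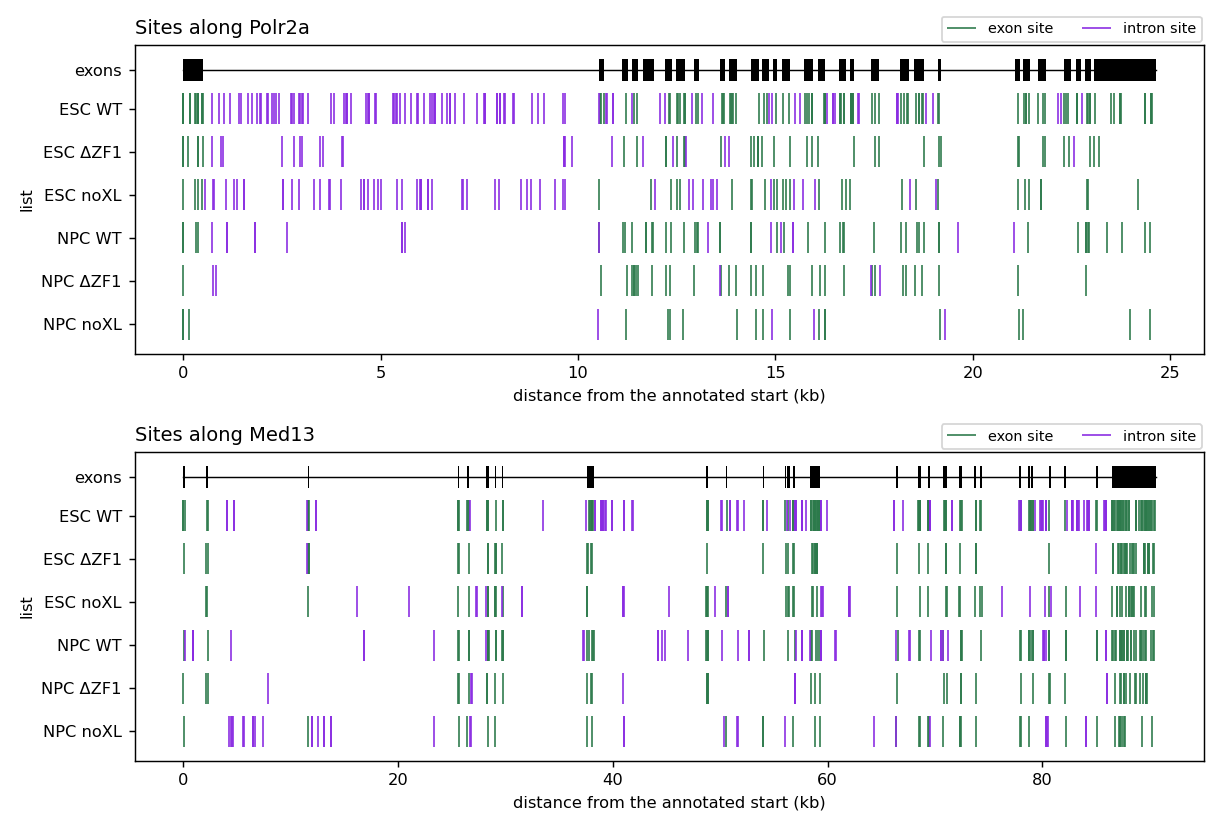
Sites along Polr2a and Med13, as distance from the annotated start of the gene in kb (horizontal axis), with exons as black boxes and 1 row per list of exon sites (green) and intron sites (purple). With WT in ESCs Med13 has 88 intron sites and with ΔZF1 it has 2, and intron 1 of Polr2a has 77 and 15.

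The next comparison asked which members held relatively fewer or more sites with the ΔZF1 protein than with WT. A ratio below is log2 of the ΔZF1 over the WT count after scaling each to its genic sites, with 1 added to each count, and a gene with 20 sites or more over the pair of lists counts as past the limit at 1 or -1. In ESCs, all 4 members on chromosome 11 had lower scaled counts with ΔZF1 by more than the counting error, and none of the 9 members passed a limit. Of all genes tested in ESCs, 5.45% were past the lower limit (355 of 6518) and 6.84% past the upper (446).

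Cdk12 had 68 sites in ESC ΔZF1 against 254 in ESC WT, a scaled log2 ratio of -0.91 (-1.31 to -0.54). Polr2a had 62 against 212, a ratio of -0.78 (-1.20 to -0.39). Med13 had 71 against 225, a ratio of -0.67 (-1.07 to -0.30). Med1, the activator-contact subunit, had 120 against 301, a ratio of -0.34 (-0.65 to -0.04). These values moved with the sites counted: on uridine sites alone Polr2a at -1.07 and Cdk12 at -1.02 were past the lower limit and Med1 was at -0.74, and with a score minimum of 3.02 Med13 was past it at -1.07 and Med1 was at -0.68. With lists of equal length Polr2a at -0.50 (-1.12 to 0.10) and Cdk12 at -0.57 (-1.30 to 0.12) were within counting error, and Med1 was at -0.69. The 5 members on other chromosomes lay between -0.13 for Med13l and 0.55 for Cdk9, and the interval of each held 0. Some of these moved as well: Polr2b, 0.18, fell to -0.86 (-1.95 to 0.03) with the score minimum and -0.72 (-1.87 to 0.33) with lists of equal length, and Cdk13, 0.16, was 0.86 (0.04 to 1.76) with the latter. Summed, the chromosome 11 members had 321 against 992 sites, -0.65 (-0.83 to -0.47), and the others 229 against 428, 0.08 (-0.15 to 0.31). The ΔZF1 lists were shorter as a whole, and unscaled these ratios were -1.63 and -0.90.

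In NPCs the sums were again lower on chromosome 11, while single members were less divided. The chromosome 11 members had 174 sites in NPC ΔZF1 against 413 in NPC WT, -0.66 (-0.92 to -0.40), and the others 151 against 227, with a ratio of -0.00 (-0.30 to 0.30), or -1.25 and -0.59 unscaled. Med1, with 38 against 116, lay at the edge of the limit with -0.998 (-1.55 to -0.50) and stayed just inside it. It was past the limit on uridine sites (-1.30), without sites near noXL ones (-1.05), scaled outside chromosome 11 (-1.06) and with 0.5 added to each count (-1.01), whereas with the score minimum it was -0.59 (-1.34 to 0.11). Cdk12 had 43 against 108 and -0.72 (-1.25 to -0.23), and Med13 had 55 against 125 and -0.58 (-1.05 to -0.14), but with the score minimum or lists of equal length the intervals of both held 0, as that of Med13 did on uridine sites. Polr2a, 38 against 64, did not differ beyond counting error in NPCs, -0.15 (-0.74 to 0.41). Off chromosome 11, Cdk9 had 7 against 17 and a ratio equal to that of Med13, -0.58 (-1.93 to 0.54), with an interval that held 0. Med12 was the highest, 24 against 21 and 0.77 (-0.05 to 1.61). None of the 9 passed a limit, where 7.36% of genes tested in NPCs were past the lower (388 of 5274) and 5.76% past the upper (304).

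Lower ratios were found over chromosome 11 as a whole. The median ratio of all 607 tested chromosome 11 genes in ESCs was -0.47 (quartiles -0.87 and -0.09), against 0.07 over the 5911 genes on other chromosomes, and 20.3% of chromosome 11 genes were past the lower limit. In NPCs the medians were -0.61 over 501 genes (quartiles -0.96 and -0.26) and 0.00 over 4773, and 22% of chromosome 11 genes were past the lower limit. The medians of the other chromosomes lay between -0.02 and 0.18 in ESCs, and in NPCs between -0.11 and 0.17. Within 2 Mb on each side, the median was -0.41 around Polr2a, -0.29 around Cdk12 and Med1 and -0.92 around Med13 in ESCs, and -0.64, -0.65 and -0.58 in NPCs. Of chromosome 11 genes in ESCs, 29.5% had a lower ratio than Polr2a, 23.8% lower than Cdk12, 35.8% lower than Med13 and 60.6% lower than Med1. In NPCs the shares were 81.2%, 40.6%, 51.6% and 22%, so Polr2a lay above the upper quartile of its chromosome and Med1 below the lower. Against the noXL lists, made from the WT line, the median ratio of chromosome 11 genes was 0.01 in ESCs and 0.07 in NPCs with WT. With ΔZF1 against noXL it was -0.46 and -0.54. Each ΔZF1 list came from 1 clone, so a difference of the line over a whole chromosome and an effect of the deletion cannot be told apart.

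**Figure D3:**
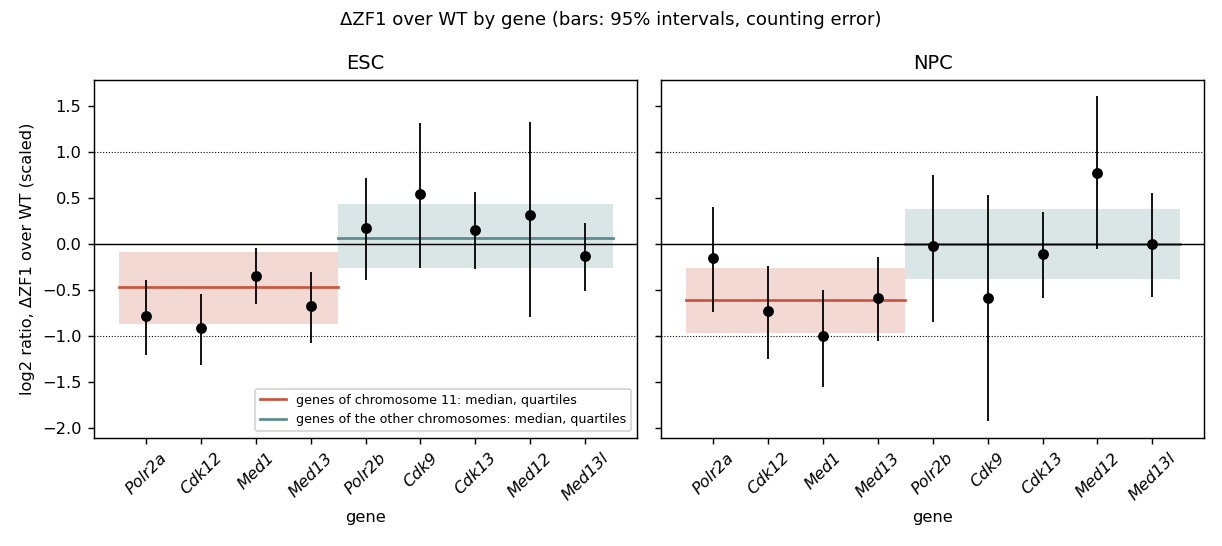
Scaled log2 ratio of ΔZF1 over WT sites (vertical axis) for each member in ESCs and NPCs, with 95% counting intervals as bars, the limits dotted, and the median and quartiles of the genes of chromosome 11 (red) and of other chromosomes (green). Polr2a, Cdk12, Med1 and Med13 lie below 0 in both cell types, where the chromosome 11 medians are -0.47 and -0.61. Polr2a in NPCs, at -0.15, lies above the quartiles of its chromosome.

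Split by position, the lower summed ratio of the chromosome 11 members was found in introns and not in exons. Each part was scaled to the genic sites of its own kind in the list. Exon sites of the 4 members together were 227 in ESC ΔZF1 against 465 in ESC WT, a ratio of -0.09 (-0.32 to 0.14), and 133 against 252 in NPCs, -0.06 (-0.36 to 0.24). Intron sites were 94 against 527 in ESCs, -1.44 (-1.76 to -1.13), and 41 against 161 in NPCs, -1.94 (-2.43 to -1.45). The intervals of the exon and the intron ratio did not overlap in either cell type.

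Med13 carried the widest difference in ESCs, with 2 intron sites in ΔZF1 and 88 in WT, a ratio of -3.85 (-6.30 to -2.53). Its exon sites, 69 against 137, gave -0.03 (-0.46 to 0.37). Intron sites of Cdk12 were 16 against 157, -2.17 (-2.98 to -1.52), while its exon sites gave 0.06 (-0.44 to 0.53). The lowest exon ratios of chromosome 11 members were those of Polr2a in ESCs, -0.45 (-0.99 to 0.05), and of Med1 in NPCs, -0.61 (-1.30 to 0.01), and their intervals held 0. Polr2a had 22 intron sites against 105, -1.16 (-1.87 to -0.55), and Med1 had 54 against 177, -0.65 (-1.11 to -0.23), within the limit. Off chromosome 11, Med13l had 14 intron sites against 83, -1.44 (-2.33 to -0.72), and Cdk13 had 22 against 79, -0.75 (-1.47 to -0.12), so that in ESCs intron sites were lower in these members too. Exon sites of Cdk13 were 50 against 49, which was a higher scaled count with ΔZF1, 0.97 (0.41 to 1.54), and those of Med13l, 69 against 97, gave 0.46 (0.01 to 0.90).

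In NPCs the intron ratio passed the lower limit in each chromosome 11 member. It was -1.55 for Polr2a (5 sites against 17), -1.84 for Cdk12 (14 against 54), -1.68 for Med1 (13 against 45) and -2.17 for Med13 (9 against 45). Cdk13 and Med13l, with 43 intron sites against 54 and 22 against 19, had ratios of -0.29 (-0.87 to 0.28) and 0.23 (-0.63 to 1.12), which overlap the interval of Polr2a (-3.12 to -0.35) but not those of Cdk12 (-2.75 to -1.08), Med1 (-2.64 to -0.88) and Med13 (-3.30 to -1.28). Polr2b, Cdk9 and Med12 had too few intron sites for a ratio in either cell type. No exon ratio of any of the 9 members passed a limit in ESCs or NPCs. Med12 in NPCs, 23 exon sites against 21 and 0.99 (0.15 to 1.83), and Cdk9, 4 against 17 and -0.99 (-2.73 to 0.28), came closest to one there.

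For intron sites, 4 of 6 members with enough sites were past the lower limit in ESCs (Polr2a, Cdk12, Med13 and Med13l) and 4 of 6 in NPCs (all on chromosome 11), where 13.3% of all genes tested on intron sites were past it in ESCs (271 of 2036) and 13.3% in NPCs (201 of 1511). On chromosome 11 the share was 50.8% in ESCs (130 of 256) and 56.5% in NPCs (95 of 168), so 3 of 4 and 4 of 4 members there stand beside a background of over 50%. The median intron ratio of chromosome 11 genes was -1.03 in ESCs and -1.09 in NPCs, against 0.11 and -0.05 on other chromosomes, and the median exon ratio of chromosome 11 genes was -0.33 and -0.28. Against noXL, the intron sites of the chromosome 11 members were also lower in ΔZF1, -1.28 (-1.63 to -0.93) in ESCs and -1.89 (-2.41 to -1.38) in NPCs. In that comparison the median of chromosome 11 genes was -0.91 in both, with 47% and 44.3% of them past the lower limit, beside 14.5% and 12.6% of all genes tested, and Med13l, on chromosome 5, had a ratio of -1.90 (-2.82 to -1.13) in ESCs. WT intron sites of the chromosome 11 members differed from noXL by less than the counting error, 0.16 (-0.07 to 0.40) in ESCs and 0.05 (-0.30 to 0.40) in NPCs. Those of the other members were at -0.40 (-0.76 to -0.03) in ESCs and -0.35 (-0.82 to 0.13) in NPCs.

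As a share of their sites, the chromosome 11 members had fewer intron sites with ΔZF1 in both cell types. Intron sites made up 53.1% of the chromosome 11 members' sites with WT and 29.3% with ΔZF1 in ESCs, and 39.0% and 23.6% in NPCs. The members elsewhere had 39.5% and 16.6% in ESCs, but 32.6% and 46.4% in NPCs. Over all genic sites the share was 33.4% with WT and 31.9% with ΔZF1 in ESCs, and 26.9% and 39.6% in NPCs. Over the genic sites of chromosome 11 it was 44.3% and 32.8% in ESCs, so lower with ΔZF1 as in the members there, but 36.0% and 37.7% in NPCs, where it was not lower.

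**Figure D4:**
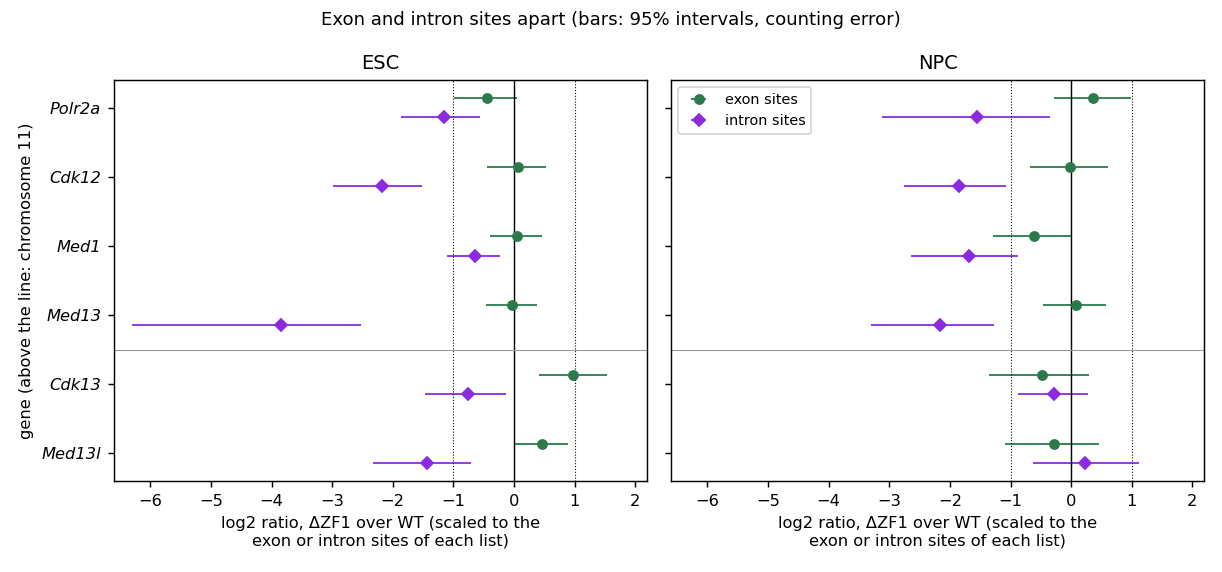
Scaled log2 ratio of ΔZF1 over WT (horizontal axis) for exon sites and intron sites of the 6 members with enough intron sites, in ESCs and NPCs, with 95% counting intervals. Polr2b, Cdk9 and Med12 are not drawn. Exon points lie within the limits of 1 and -1, and intron points of the chromosome 11 members reach -3.85 in ESCs and -2.17 in NPCs.

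Between the cell types, the WT lists were compared to ask which members held relatively more sites in NPCs. Together the 9 members were slightly lower in NPC WT, -0.25 (-0.39 to -0.12). The chromosome 11 members summed to -0.37 (-0.53 to -0.20) and the others to -0.02 (-0.25 to 0.22). On exon sites alone the 9 members were at -0.07 (-0.25 to 0.10). In cells pooled for a library, fewer cells with a transcript and less of it per cell cannot be told apart. Med12 alone passed a limit, with 21 sites in NPCs against 18 in ESCs and a ratio of 1.11 (0.23 to 2.02), where 11.5% of tested genes were past the upper limit (776 of 6730) and 10.4% past the lower (703). With the lists cut to the same length the ratio of Med12 was -0.05.

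Polr2a was lower in NPC WT, 64 against 212 and -0.81 (-1.23 to -0.43), whereas with ΔZF1, 38 against 62, its ratio was -0.18 (-0.78 to 0.38). The WT difference was wider in its introns, 17 against 105 and -1.35 (-2.15 to -0.69), than in its exons, 47 against 107 and -0.40 (-0.91 to 0.07), though these intervals overlap. Across the 6 lists, intron 1 of Polr2a held 77, 15, 45, 10, 2 and 1 sites, so ESC lists held nearly all of them, the one without UV included. Between the noXL lists the intron ratio of Polr2a was -3.08 (-4.78 to -1.97), with 4 sites in NPCs against 58. On intron sites 23.8% of all tested genes were past the lower limit between the WT lists, and 19.7% between the noXL lists. Med13l (62 against 180, -0.62), Med1 (116 against 301, -0.47) and Cdk12 (108 against 254, -0.33) were lower in NPC WT by more than counting error, though with lists of equal length the ratio of Cdk12 was 0.02. Cdk13 was higher, 96 against 128 and 0.49 (0.10 to 0.86), and only after scaling, since its unscaled ratio was -0.41, and Polr2b, Cdk9 and Med13 had intervals that held 0. Between the ΔZF1 lists Med1 (38 against 120, -1.13) and Cdk9 (7 against 22, -1.02, an interval that held 0) were past the lower limit, as were 14.1% of all tested genes, and Med12 (24 against 11, 1.57) was past the upper, as were 10.9%.

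Set against the controls without UV, none of the 9 members passed a limit with WT in either cell type. In ESCs 8.12% of tested genes were past the upper limit (504 of 6208) and 6.6% past the lower (410), and in NPCs 10.5% (498 of 4765) and 6.51% (310). The members together held relatively fewer sites in WT than in noXL, -0.16 (-0.30 to -0.02) in ESCs and -0.30 (-0.49 to -0.11) in NPCs. On exon sites the ratios were -0.22 (-0.42 to -0.02) and -0.30 (-0.56 to -0.05). On intron sites they were within counting error, 0.01 (-0.19 to 0.20) and -0.09 (-0.37 to 0.20). Cdk13 and Med13l were below 0 by more than the counting error in both, Cdk13 with -0.52 (-0.94 to -0.08) and -0.48 (-0.94 to -0.01), and Med13l with -0.53 (-0.89 to -0.16) and -0.78 (-1.32 to -0.23). These directions rest on the scaling: unscaled, the WT list held 2.54 times the member sites of noXL in ESCs and 1.83 times in NPCs. With ΔZF1, Polr2a was past the lower limit against noXL in ESCs (62 against 91, -1.08), where 6.56% of all tested genes were, and no member was past the upper, where 7.86% were. In NPCs Cdk12 (43 against 64, -1.15) and Med1 (38 against 62, -1.28) were past it, beside 8.03% of genes, and Med12 (24 against 4, 1.74) was past the upper, beside 7.19%. The base under the sites differed between the lists as well.

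Uridine was the crosslinked base of 65.1% of member sites with WT in ESCs (62.6 to 67.5) and 65.9% in NPCs (62.2 to 69.5), against 27.2% in ESC noXL (23.7 to 31.0) and 31.2% in NPC noXL (26.6 to 36.3). Uridine makes up 26.0% to 34.4% of the members' gene bodies. The ΔZF1 lists lay between, with 46.5% (42.4 to 50.7) in ESCs and 57.5% (52.1 to 62.8) in NPCs. Over all genic sites the shares were 60.6%, 49.2%, 28.3%, 64.6%, 59.0% and 27.9%, so the members were above all genic sites beyond counting error in ESC WT alone.

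Among members, Med13 had the highest uridine share in ESC WT, 73.8%, beside 66.2% with ΔZF1 and 19.5% without UV. In NPCs its shares were 70.4% in WT, 72.7% in ΔZF1 and 34.2% in noXL. The difference between the rescue proteins was within counting error in both cell types, -7.58 percentage points (-20.3 to 4.07) in ESCs and 2.33 (-12.5 to 15.5) in NPCs. Med1 went from 64.5% in ESC WT to 39.2% in ESC ΔZF1, a difference of -25.3 percentage points (-35.0 to -14.8), and from 69.0% to 50% in NPCs, -18.97 (-36.0 to -1.39). Polr2a went from 69.3% to 45.2% in ESCs, -24.2 (-37.3 to -10.3), and Med13l from 62.8% to 38.6%, -24.2 (-36.1 to -11.2). In NPCs their differences were within counting error, -12.0 (-30.6 to 7.64) for Polr2a and -9.24 (-27.7 to 9.70) for Med13l. In ESC WT the exon sites of the members were on uridine in 66.0% and the intron sites in 64.1%.

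**Figure D5:**
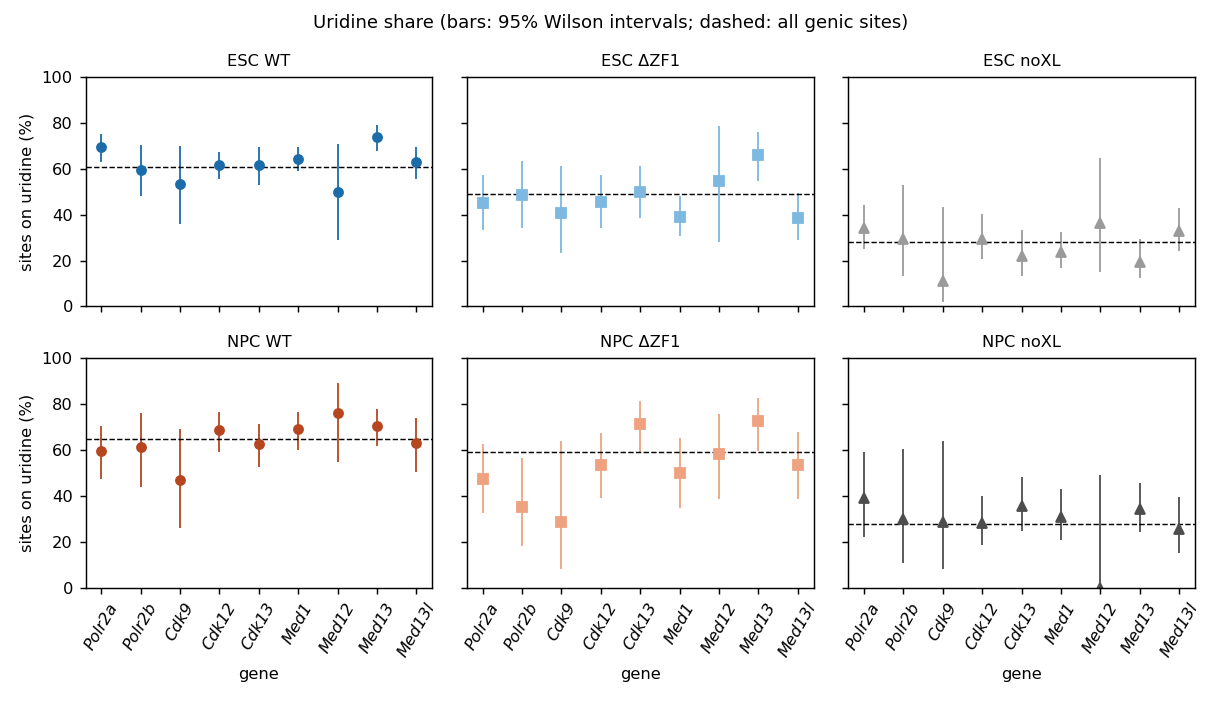
Percent of sites on uridine (vertical axis) for each member, 1 panel per list, with 95% Wilson intervals as bars and the share over all genic sites as a dashed line. Med13 reaches 73.8% in ESC WT and 19.5% in ESC noXL, and most ESC ΔZF1 points lie between those of WT and noXL.

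Few positions recurred between lists. Of 2786 positions in the members that any crosslinked list called, 2654 were in 1 list, 116 in 2, 15 in 3 and 1 in all 4. A site of ESC WT had an ESC ΔZF1 site within 5 nt in 8.52% of cases, beside 15.1% of all genic sites, an NPC WT site in 12.04% beside 17.2%, and an ESC noXL site in 5.70% beside 7.67%. Of the 16 positions in at least 3 crosslinked lists, 7 were on uridine, 6 lay in 5′ UTRs and 5 were also called without UV. Of the 11 that no list without UV held, 4 lay on uridine in coding exons, and these are shown in the same way as the windows above.
Polr2a, chr11:69742371-69742395, minus strand: cuaauaaagcuuUugagaagaagua
Polr2b, chr5:77332190-77332214, plus strand: aaccaagauuuuUguuaauggcugc
Cdk12, chr11:98210722-98210746, plus strand: guaaaacauuguUuagacacaggga
Med1, chr11:98189191-98189215, minus strand: gagugaaaccauUaagcuugugcgu
The site in Med1 had scores of 23.9 in ESC WT, 23.5 in NPC WT and 12.5 in NPC ΔZF1. The one in Polr2b scored 8.80 and 4.85 in ESCs with WT and ΔZF1, and 5.08 in NPC WT.

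The position called in all 4 crosslinked lists was base 4 of the annotated first exon of Polr2a, the capital in its window above. Its scores were 98.9 and 31.2 with WT and ΔZF1 in ESCs and 54.1 and 27.1 in NPCs, and it was also called in NPC noXL with 24.0. The neighbouring base 3 was called in ESC noXL with 90.3, close to its 98.9 in ESC WT, and in NPC noXL with 36.1. The start of Polr2a was thus called without UV as well. Over all member sites the median score percentile within a list lay between 41.8 and 49.6, so members were near the middle of their lists.

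The coding sites of Polr2a were placed on its protein to see how many fell in the exact copies of the heptad. The stretch from the first to the last exact heptad copy spans residues 1615 to 1803 of 1970, with 21 exact copies, and is 9.59% of the protein. It held 2 of 91 coding sites in ESC WT, 2.198% (0.605 to 7.66), 1 of 35 with ΔZF1 and 0 of 30 without UV in ESCs, and 1 of 41, 0 of 32 and 0 of 15 in the NPC lists. In ESC WT the codons of this stretch held a smaller share of the coding sites than of the protein's length, beyond counting error, and 3 further sites lay after it. Its uridine content, 22.4%, was close to the 22.5% of the coding sequence.

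Patterns were compared over the 6 lists by log2 of the sites per 10000 genic sites plus 1, less each gene's mean, among 3860 genes with at least 100 sites. The patterns nearest to Polr2a were those of Phb (root mean square distance 0.103) and Nsf (0.116), both on chromosome 11 like Polr2a, and Atr (0.109) on chromosome 9. Nearest to Med13 were Foxk2 (0.082), Flot2 (0.088) and Rtn4 (0.100), all on chromosome 11. Nearest to Med13l were Ncoa6 (0.067), Qtrt2 (0.093) and Dennd1b (0.096), none of them on chromosome 11. These are likenesses of counts in 1 list per group and carry no test.

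The other genes of the machinery were counted from fixed lists, which hold 85 genes with the members and 76 without them. With ΔZF1 in ESCs, 5 of 61 tested non-member genes were past the lower limit and 3 past the upper, beside 5.45% and 6.84% of all tested genes. The median of the non-member genes was 0.07. In NPCs 2 of 45 were past the lower limit and none past the upper, beside 7.36% and 5.76% of all tested genes, with a median of 0.03. The 6 tested genes on chromosome 11 had a median of -0.27 in ESCs and the 4 in NPCs one of -0.47. Med23, a Mediator tail subunit, had 13 sites in ESC ΔZF1 against 80 in ESC WT, -1.55.

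By role, and with members included, 9 of 11 tested polymerase subunit genes were below 0 in ESCs with ΔZF1, with a median of -0.61, where 47.7% of all tested genes were below 0 and their median was 0.04. Polr2i (5 sites against 32) and Polr2d (4 against 24) were past the lower limit. In NPCs 4 of 7 were below 0, with a median of -0.02, beside 52.5% and -0.04 over all genes. These counts carry no test. Of all tested genes, 5.45% were past the lower limit and 6.84% past the upper in ESCs, and 7.36% and 5.76% in NPCs. The head, middle and tail of Mediator had medians of 0.13 over 20 genes in ESCs and -0.33 over 13 in NPCs, with Med23 and Med9 past the lower limit and Med14 past the upper in ESCs, and Med24 and Med6 past the lower in NPCs. Med24, on chromosome 11, had 2 sites in NPC ΔZF1 against 29 in NPC WT, -2.73 (-5.19 to -1.35). The kinase module had -0.12 over 5 and 0.29 over 4, with none past a limit. The tail kinases and their cyclins had 0.16 over 9 and 0.25 over 8, with Mnat1 past the lower limit in ESCs. Genes that control P-TEFb and pausing had 0.50 over 9 and 0.03 over 8, with Nelfb past the upper limit in ESCs. Elongation factors had -0.02 over 13 and -0.20 over 11, with Paf1 past the upper limit in ESCs, and tail phosphatases had 0.26 over 3 and -0.04 over 3, with none past a limit. Of the genes past a limit, only Med23 had 50 sites or more, and the others were named after their values were seen.

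Between the WT lists, 5 of 62 tested non-member genes were past the lower limit in NPCs and 7 past the upper, near or under the 10.4% and 11.5% of all tested genes. Aff1, a scaffold of the super elongation complex, had 188 sites with WT in ESCs and 0 in NPCs, which with 3 sites as the floor is at least 33.6-fold lower per genic site. The ESC ΔZF1 list held 98 Aff1 sites, the NPC ΔZF1 list 19 and the noXL lists 113 and 2. Lower in NPC WT were also Med21 (9 against 55, -1.59), Tcea1, which rescues backtracked polymerase (9 against 43, -1.24), and the kinase-module cyclin Ccnc (11 against 46, -1.07). Higher were the Mediator backbone gene Med14 (41 against 20, 1.90) and Ctr9 of the PAF complex (41 against 31, 1.29). The fifth gene past the lower limit was Ccnh (6 against 28), named after its values were seen. Against noXL, where 6.6% and 8.12% of all tested genes were past the lower and upper limit in ESCs and 6.51% and 10.5% in NPCs, 3 of 60 were past the lower limit in ESCs (Med14, Cdk19 and Ctdp1) and 7 past the upper, of which Eaf1 had 50 sites or more over the pair (51 against 7, 1.19). In NPCs 4 of 37 were past the lower (Med25, Med12l, Nelfa and Ssu72) and 3 past the upper (Polr2e, Nelfe and Supt16). Of these only Supt16 had 50 sites or more (73 against 13, 1.23), and those with fewer were named after their values were seen.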

How the data were processed

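The 23 iCLIP2 libraries were grouped by the sample labels. According to the study's methods, reads were trimmed with Flexbar, aligned to mm10 with STAR and deduplicated with UMI-tools, the libraries of a group were merged, and sites were called with PureCLIP, whose versions are not given in the sources used here. The deposited value is the score the authors' PureCLIP run gave each site, which is not scaled to depth.

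Sites of the 21 main chromosomes were assigned to GENCODE M21 genes by strand. A position annotated in several ways counted as coding first, then 3′ UTR, 5′ UTR, other exon and intron, and bases were read from GRCm38. Ratios used a pseudocount of 1 (none for sums), a minimum of 20 sites over the pair of lists, and limits of 1 and -1. Intervals are 95% and cover counting error only, and 3 counts served as the floor. Alternatives changed the score minimum, bases, background sites, merging within 8 nt, pseudocount, gene minimum, scaling and list length.

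The members and gene lists were chosen with earlier results of these data known. By plan all 9 members were named, and genes of the wider lists when past a limit with at least 50 sites. Wider-list genes with fewer sites were named after their values were seen. The ratio step was tested on simulated data. Python 3.11.15, numpy 2.4.6, pandas 2.3.3, scipy 1.17.1 and matplotlib 3.10.9 were used.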

Additional observations from a re-analysis of the deposited data

Results flagged for a closer look

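The intron share of Cdk13 was lower in ΔZF1 than in WT by more than counting error in ESCs, -31.2 percentage points (-43.5 to -16.9), and higher in NPCs, 16.6 points (0.952 to 30.5). Med13l went the same ways, -29.2 points (-39.0 to -17.4) in ESCs and 23.0 points (3.67 to 40.5) in NPCs. Over the 5 members off chromosome 11 the differences were -22.9 points (-29.2 to -15.9) and 13.8 points (3.73 to 23.6). These results stand out because the direction is opposite in the cell types. The difference between the cell types was not tested, since each group is 1 pooled list. Over all genic sites the intron share was 33.4% with WT and 31.9% with ΔZF1 in ESCs, and in NPCs 26.9% and 39.6%, and its part in these values was not tested.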

How the results depend on the processing

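No paired analysis was possible because sites were called after a group's libraries had been merged, and leaving out single libraries was not possible either. Of 563 values of single members under the alternatives, 444 stayed within the counting interval of the reported value, and in 14 a value whose interval excluded 0 changed sign. Of 144 summary values, 91 stayed within it and in 5 such a value changed sign. Among the 144 are the numbers of genes past the limits, which have no interval and counted as staying when their fold change was small. Values whose interval held 0 also changed sign and are not in these counts. The chromosome 11 members' ΔZF1 over WT ratio in ESCs was -0.84 on uridine sites, -1.63 without scaling and per library, -0.088 in exons and -1.44 in introns. In NPCs it was -1.25 without scaling, -1.66 per library, -0.061 in exons and -1.94 in introns. That of the other members in ESCs was -0.90 without scaling and per library, 0.51 in exons and -1.11 in introns, and in NPCs 0.30 with a score minimum of 3.02, -0.59 without scaling and -1.003 per library. NPC over ESC for the 9 members was -0.42 with the score minimum, -1.15 without scaling, -0.073 in exons and -0.73 per library. WT over noXL in ESCs was -0.0045 on uridine sites, 0.0068 in introns and 1.34 without scaling and per library, and in NPCs -0.51 with the score minimum, -0.086 in introns, -0.50 with lists of 107227 sites each, 0.87 without scaling and 1.29 per library. The intron-site ratio of the chromosome 11 members in ESCs was -1.82 on uridine sites, and without Med13 it was -1.21 in ESCs and -1.83 in NPCs. The intron share of the members was 42.1% in ESC WT and 32.5% in NPC WT with the score minimum, and 38.6% and 31.4% with lists of equal length. In exons the ratio of Cdk12 in ESCs was 0.059, of Med1 in ESCs 0.047 and of Med13 in NPCs 0.076. NPC over ESC with lists of equal length gave 0.018 for Cdk12 and -0.053 for Med12, and without scaling -0.41 for Cdk13. WT over noXL without scaling was 0.99 for Cdk13 and 0.98 for Med13l in ESCs, 0.69 and 0.39 in NPCs, and per library 0.99, 0.98, 1.11 and 0.81. Genes past the lower and upper limits with minimums of 10 and 50 sites were, for ΔZF1 over WT, 580 and 703, then 143 and 144 in ESCs, and 759 and 545, then 72 and 113 in NPCs. For WT over noXL they were 742 and 757, then 111 and 111 in ESCs, and 586 and 1024, then 86 and 87 in NPCs. For NPC over ESC 1233 were past the upper limit with 10, and 359 and 283 past the lower and upper with 50. The cause of these shifts was not tested, apart from the gene minimum, which changes how many genes are tested, and from scaling, which sets lists of different length side by side. Read depth was not analysed here, and members with few sites, such as Cdk9 and Med12, carry the widest intervals of scaled ratios.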
